A study of Mus musculus with 6 samples.

Results

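The genes described here encode the ligands and receptors of axon guidance: the semaphorins with their plexin and neuropilin receptors, the ephrins with the Eph receptors, the netrins with Dcc and the Unc5 receptors, the netrin-G proteins, and the Slits with the Robo receptors. They were chosen by name as every gene in the deposited table whose symbol starts with Sema, Plxn, Epha, Ephb, Efna, Efnb, Ntng or Unc5, together with Ntn1, Ntn4, Dcc, Slit1 to Slit3, Robo1 to Robo4, Nrp1 and Nrp2. The rule uses names and no measured value, although it was set with earlier results of these data known. Ntn3 was not analysed here, and 3 antisense names were left out. This gave 71 of 54532 genes, of which 35 encode ligands and 34 encode receptors. The other 2, Unc50 and Unc5cl, carry the Unc5 letters but are neither guidance ligands nor netrin receptors, and they are counted but kept apart below.

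Guidance cues are secreted or membrane-held proteins that attract or repel a growing axon through receptors acting on the actin skeleton. Semaphorins signal through plexins, with neuropilins as co-receptors for the secreted class 3, whereas ephrins and Eph receptors both sit in the membrane, act between touching cells and can signal in either direction. Many of these molecules are also made by epithelia, where Eph and ephrin contacts are known for sorting cells and keeping boundaries. Merkel cells are touch-sensitive cells of the epidermis that are contacted by sensory axons.

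Both groups came from the dissociated dorsal epidermis of 4-week-old C57BL/6 mice of either sex, with no treatment or genetic change named in the labels. For the 3 NCAM-enriched libraries, cells carrying polysialylated NCAM, a surface adhesion molecule of Merkel cells, were first pulled out with antibody-coated beads and then sorted as NCAM-positive, DAPI-negative (live) cells. For the 3 bulk skin libraries, DAPI-negative epidermal cells were sorted without NCAM selection. Per library, 500 events were sorted and taken through Smart-seq2, a full-length cDNA protocol for small samples, and the question was which genes set an enriched Merkel cell population apart from bulk skin.

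Library totals ran from 1343190 to 3798136 counts in the NCAM-enriched group, and bulk skin libraries held 3333753 to 4481830, so that 1 count was worth 0.216 to 0.773 CPM, a read count per gene normalised by the TMM-scaled library size. Of 8 Merkel cell marker genes, 5 were called higher in the NCAM-enriched group, and their summed level was 1460, 1561 and 426 CPM against 127 to 170 CPM in bulk skin, with none at 0 in either group. The NCAM-enriched libraries also held keratinocyte RNA: 4 of 6 suprabasal keratinocyte markers were called higher (summed 11481 to 24900 CPM against 840 to 1159 CPM), and 1 of 5 hair follicle markers was (6180 to 28742 CPM against 1808 to 2371 CPM). Krt17 and Krt79 made up most of the hair follicle sum. Sox9, Lhx2 and Lgr5 overlapped between the groups, Lhx2 and Lgr5 with fold changes below 0 on the log2 scale. The bulk libraries held the T and NK cell RNA (2831 to 3071 CPM for 6 markers, against 1.06 to 13.9 CPM and Cd3d at 0) and the Langerhans and myeloid RNA (9811 to 17190 CPM for 6 markers, against 52.5 to 312 CPM), and all 12 of these markers were called lower in the NCAM-enriched group. NCAM-enriched library 2 stood apart with 33003 CPM of 6 fibroblast markers against 363 and 41.7 CPM in the other NCAM-enriched libraries, and every bulk library held them too (13226, 18198 and 10356 CPM). In bulk samples of this kind, fewer cells of a type and less RNA per cell cannot be told apart.

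All 71 members had at least 1 count somewhere, and 50 passed the filter on low counts and were tested, 28 ligands, 21 receptors and Unc50. A gene counted as called when edgeR's quasi-likelihood test over all 13157 genes tested gave an adjusted p of 0.05 or less. On that rule 2 members were higher in the NCAM-enriched group, Ephb6 and Ntng2, and 1 was lower, Sema6d. The shares of tested members called, 4% higher and 2% lower, stand against 1.04% and 1.55% of all tested genes, and counts of 2 and 1 are too small to set the members apart from these. The median log2 fold change (NCAM-enriched over bulk skin) of the 50 members was 0.11, against -0.07 for all tested genes. At an unadjusted p under 0.05, 12 members were higher and 7 lower, where 8.73% and 10.2% of all genes were. The groups did not overlap for 9 members with the higher values in the NCAM-enriched group (18%, against 11.1% of all genes) and for 10 with the higher values in bulk skin (20%, against 19.3%). DESeq2 called 7 members higher and 7 lower of the 59 it gave an adjusted p (11.9% each way, against 7.31% and 6.36% of all genes), and limma-voom called 5 higher and 3 lower (against 2.67% and 6.45%).

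**Figure D1:**
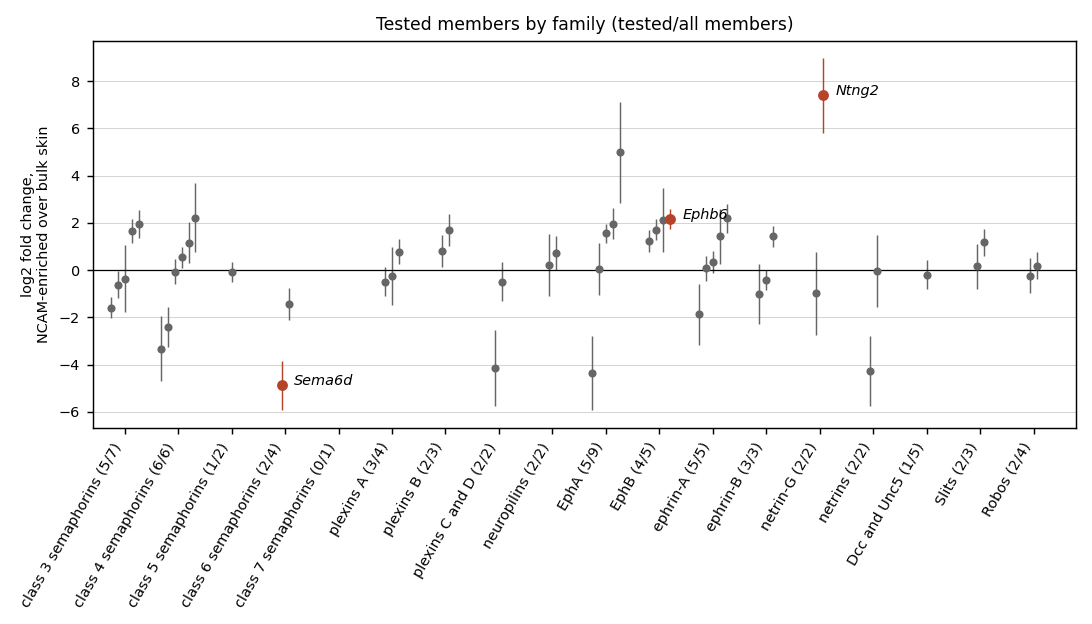
Each point is 1 tested member, its height is the fitted log2 fold change of NCAM-enriched over bulk skin and its bar is 1 SE; families run along the horizontal axis with the number tested of all members in brackets, and Unc50 is left out. The 3 called members are in red: Ephb6 at 2.15, Ntng2 at 7.39 and Sema6d at -4.88.

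Sequences upstream of RefSeq start sites of the 3 called genes are shown because these are the members whose level passed the test. They were read from RefSeq's promoter table (GRCm38.p6), each run 5′ to 3′ on the gene's own strand, from 250 bases before a RefSeq start site and ended before the start or at the first base, if any, that GENCODE M21 places in an exon of the gene. Ephb6 (ENSMUSG00000029869) lies on chr6:41605482-41620509, plus strand, and the bases shown are chr6:41605261-41605480. Ntng2 (ENSMUSG00000035513) lies on chr2:29194541-29253005, minus strand, and the bases shown are chr2:29248289-29248349, inside the annotated gene, before the RefSeq start at base 29248099 and cut short by an exon of the gene that reaches further upstream. Sema6d (ENSMUSG00000027200) lies on chr2:124089969-124667770, plus strand, and has more than 1 RefSeq start, with chr2:124089719-124089938 shown for the upstream start and chr2:124653331-124653550, which lies inside the annotated gene, for the downstream start.
Ephb6: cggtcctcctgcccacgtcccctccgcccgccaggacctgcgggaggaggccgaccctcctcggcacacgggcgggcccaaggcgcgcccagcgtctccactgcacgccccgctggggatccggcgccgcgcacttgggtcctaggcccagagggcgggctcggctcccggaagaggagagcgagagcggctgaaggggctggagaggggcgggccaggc
Ntng2: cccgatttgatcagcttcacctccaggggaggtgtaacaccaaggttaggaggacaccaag
Sema6d upstream start: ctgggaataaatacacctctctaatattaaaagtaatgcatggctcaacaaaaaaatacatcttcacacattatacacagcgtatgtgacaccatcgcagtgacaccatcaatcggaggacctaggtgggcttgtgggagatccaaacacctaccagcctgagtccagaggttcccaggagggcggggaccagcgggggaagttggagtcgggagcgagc
Sema6d downstream start: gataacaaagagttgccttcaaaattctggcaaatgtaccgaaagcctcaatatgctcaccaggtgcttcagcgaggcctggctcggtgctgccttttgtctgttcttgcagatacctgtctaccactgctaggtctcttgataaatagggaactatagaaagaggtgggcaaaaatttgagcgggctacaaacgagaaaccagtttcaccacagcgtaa

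The run at Ephb6 was 76.8% G and C, against 54.1% at Ntng2 and 50.5% and 46.4% at the Sema6d starts. The E-boxes CAGCTG and CAGATG, letters of the kind bound by Atoh1, the transcription factor that starts the Merkel cell lineage, were searched on both strands, and neither stands in the runs printed above (the Ntng2 window held 1 CAGATG outside the printed run). Over windows of 220 bases upstream of a start, CAGCTG was held by 11 of 77 member promoters (14.3%) and by 11.4% of all 32851 promoters, and CAGATG by 6 of 77 (7.79%) and by 13%. The table held a promoter for 61 of the 71 members. A match or its absence is a description of these letters only.

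Among the receptors, the Eph receptors had the most members with higher values in the NCAM-enriched group. Their summed level was 891, 1015 and 1332 CPM in the 3 NCAM-enriched libraries and 264, 379 and 363 CPM in bulk skin, 3.22 times higher on the means, and the groups did not overlap. Of the 14 genes 9 were tested, 8 of these had a fold change above 0, and their median log2 fold change was 1.71. Ephb6 alone was called by edgeR, while DESeq2 called 3 higher (Epha4, Ephb4 and Ephb6) and 1 lower (Epha7), and limma-voom called the same 3 higher. Of all genes tested, edgeR called 1.04% higher, DESeq2 7.31% higher and 6.36% lower, and limma-voom 2.67% higher.

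Ephb6 encodes an Eph receptor that binds ephrins but whose kinase domain is inactive, so that it signals through partner receptors. It measured 320, 362 and 594 CPM in the NCAM-enriched libraries and 65.5, 103 and 119 CPM in bulk skin. Every NCAM-enriched library was thus above every bulk library by a wide gap. The highest value fell in library 3, which had the lowest Merkel marker sum of its group. That library also had the highest basal keratinocyte and hair follicle sums, though not the highest Itga6, Lhx2 or Lgr5. The Ephb6 means were 425 ± 147 and 95.7 ± 27.4 CPM (SD, n = 3 each), a 4.44-fold difference (log2 fold change 2.15 ± 0.42, SE), with an edgeR adjusted p of 0.0364. The fold change stayed between 1.76 and 2.31 on the log2 scale when any 1 library was left out, but the call was lost without NCAM-enriched library 1 or any bulk library (adjusted p 0.0503 to 0.266).

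The other EphB receptors with kinase activity gave smaller gaps. Ephb4, the receptor that pairs with ephrin-B2 between veins and arteries, measured 74.9, 107 and 86.3 CPM against 22.7, 26.8 and 32.1 CPM (log2 fold change 1.71 ± 0.45, edgeR adjusted p = 0.0757). Ephb3 measured 103, 98.1 and 186 CPM against 35.1, 75.2 and 55.4 CPM (1.23 ± 0.46, adjusted p = 0.194). Neither pair of groups overlapped, and neither gene passed the edgeR threshold. Ephb2 was spread unevenly, with 344 of its 357 counts in the NCAM-enriched group in library 3 and values of 4.25, 3.86 and 97.6 CPM against 3.84 to 15.6 CPM. Ephb1 had 11 counts in 1 NCAM-enriched library and 57, 12 and 5 in bulk skin, and was not tested.

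Of the EphA receptors, which mainly bind the lipid-anchored ephrin-A ligands, Epha4 had the smallest p. Epha4 also binds ephrin-B ligands, and it measured 196, 297 and 183 CPM against 49.7, 99.2 and 80.9 CPM, without overlap (log2 fold change 1.56 ± 0.41, edgeR adjusted p = 0.0771). Epha1 measured 141, 26.3 and 125 CPM against 18.6 to 28.3 CPM, and the groups overlapped only through NCAM-enriched library 2. Without that library Epha1 was called higher (log2 fold change 2.39, edgeR adjusted p = 0.00889). For Epha1, 6.01% of the exonic bases are shared with Zyx on the opposite strand, a gene with more counts in every bulk library (846 to 1606) than in any NCAM-enriched one (85 to 284), and reads of the pair cannot be told apart where the exons overlap. Epha2, an Eph receptor of keratinocytes, ranged from 0.773 to 57.0 CPM, a wider span than the 13.2 to 39.7 CPM of bulk skin.

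Epha5 owed 155 of its 181 NCAM-enriched counts to library 2, where it reached 120 CPM against 13.3 and 0.284 CPM. Bulk skin held 15 Epha5 counts, all in library 3, and the log2 fold change of 4.98 had an SE of 2.14. NCAM-enriched library 2 was also the highest of its group for fibroblast markers, which every bulk library held. It was likewise highest for the sum of the 5 melanocyte markers (68.8 CPM against 2.66 and 2.27 CPM). Dct alone gave 64.1 CPM of that sum and Tyr 4.64 CPM, while Pmel, Mlana and Tyrp1 were at 0 in that library. None of the 5 melanocyte markers was tested by edgeR. The part of these cells in the Epha5 counts was not tested. Epha7 was the tested Eph receptor with a fold change below 0, with 2 NCAM-enriched counts against 31, 35 and 22 in the bulk libraries. The ratio of the pooled counts was 25.6 in favour of bulk skin, with a 95% counting interval of 6.89 to 215, and edgeR gave an adjusted p of 0.172. Epha3 had 1 count against 47 (ratio 27.4 in favour of bulk skin, interval 4.68 to 1105), 38 of which came from bulk library 2. Epha6, Epha8 and Epha10 had 3, 2 and 9 NCAM-enriched counts and no bulk count, which is too few to compare.

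The ephrins, the ligands of these receptors, were all tested, and edgeR called none of the 8, where 2 were higher and 0 lower at an unadjusted p under 0.05. Limma-voom and DESeq2 each called 1, Efna3, higher, where they called 2.67% and 7.31% of all genes higher. Efna3, a lipid-anchored ligand of the EphA receptors, measured 418, 107 and 570 CPM against 67.7, 109 and 64.7 CPM, so that NCAM-enriched library 2 lay inside the bulk range. Its log2 fold change was 2.18 ± 0.59 (edgeR adjusted p = 0.0832), and without that library it was 2.604 and called (adjusted p = 0.00558). Library 2 was the lowest NCAM-enriched library for all 5 ephrin-A genes, whose sum was 777, 209 and 953 CPM, and Efna4 had 1 count there against 188 and 399. Efna4 shares 10.5% and Efna3 14.1% of exonic bases with opposite-strand genes that held at most 2 counts in all.

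The other ephrin-A ligands were not called by any of the 3 tools. Efna1 measured 181, 74.9 and 175 CPM against 129, 139 and 71.0 CPM, and Efna5, a repellent cue for many axons, 74.9, 25.5 and 89.7 CPM against 50.9 to 66.6 CPM. Both overlapped between the groups. Efna2 measured 3.19, 0 and 5.11 CPM against 6.83, 11.02 and 14.0 CPM, with all of bulk skin above (log2 fold change -1.87 ± 1.30, edgeR adjusted p = 0.499).

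Among the transmembrane ephrin-B ligands, Efnb1 measured 224, 285 and 534 CPM against 107, 176 and 103 CPM. Its groups did not overlap (log2 fold change 1.44 ± 0.45), but its edgeR adjusted p was 0.117. Efnb2, the partner of Ephb4, measured 93.0, 129 and 195 CPM against 124, 176 and 258 CPM, overlapping groups with the higher mean in bulk skin. Efnb3 stayed low in all libraries, at 3.72, 0 and 1.99 CPM against 3.73, 4.11 and 4.11 CPM. All of bulk skin lay above by a narrow margin (log2 fold change -1.01 ± 1.28, edgeR adjusted p = 0.739).

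**Figure D2:**
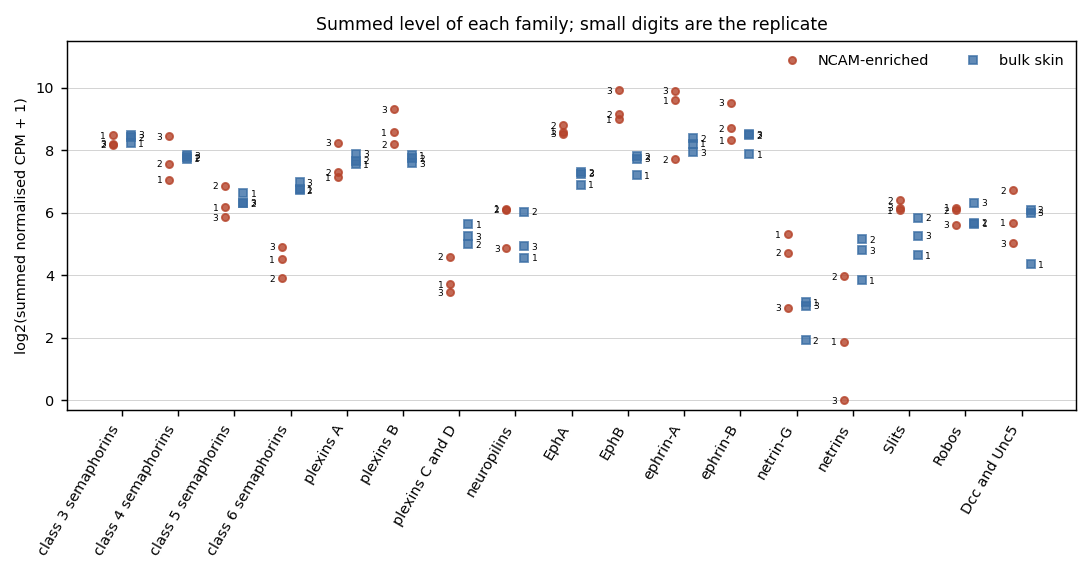
Summed level of each family in each library on a log2 scale, log2(CPM + 1), with NCAM-enriched libraries as circles and bulk skin libraries as squares, and the replicate number beside each (Sema7a, Unc50 and Unc5cl are left out). The EphA and EphB sums of the NCAM-enriched libraries (368 to 444 and 508 to 964 CPM) sit above those of bulk skin (118 to 157 and 146 to 223 CPM), and the class 6 semaphorins (13.9 to 29.2 against 105 to 125 CPM) sit below. The sums of plexins B and of the Slits also sit above without overlap, and those of plexins C and D below.

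Sums of keratinocyte markers varied with some of these values. NCAM-enriched library 2, the lowest of its group for Efna3, Efna4 and Epha1, also had the lowest sums of basal keratinocyte (6879 CPM against 9550 and 30316 CPM) and hair follicle markers of its group. The basal markers did not all follow their sum. Krt14 and Krt15 were lowest in library 2. Krt5 (2201, 2439 and 9004 CPM), Col17a1 (397, 464 and 2141 CPM) and Itga6 (162, 362 and 299 CPM) were lowest in library 1. Library 3, the highest of its group for Ephb6, Ephb3 and Efnb1, had the highest sums of both (28742 CPM of hair follicle markers against 12074 and 6180 CPM). Krt17 and Krt79 made up most of that hair follicle sum (17761 and 10334 CPM in library 3), and Sox9 was also highest there (610 CPM). Lhx2 was highest in library 2 (81.1 CPM against 13.3 and 36.3 CPM). Lgr5 was at 0 in library 3 against 70.7 and 22.4 CPM in libraries 1 and 2. In bulk skin the basal keratinocyte sum was 11589 to 15984 CPM. None of the 5 basal keratinocyte markers was called, and none was at 0. The suprabasal keratinocyte sum was not highest in library 3, at 24900, 11481 and 11899 CPM in the NCAM-enriched libraries. Epha4 and Ephb4 had their highest NCAM-enriched values in library 2, at 297 and 107 CPM. The part of keratinocytes in the Eph and ephrin differences was not tested.

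The semaphorins were the largest family with 20 genes, 14 of them tested. Unlike the Eph receptors, 9 of the 14 had a fold change below 0, and their summed levels overlapped, at 580, 607 and 727 CPM against 713, 741 and 793 CPM. EdgeR called 1 lower and none higher, and DESeq2 called 4 lower (Sema3c, Sema4d, Sema4f and Sema6d) and 2 higher (Sema3d and Sema3f). Of all genes tested, edgeR called 1.55% lower and 1.04% higher, and DESeq2 6.36% lower and 7.31% higher.

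Sema6d encodes a transmembrane semaphorin that signals through class A plexins and can also act as a receptor itself. It was at 0, 1.55 and 4.82 CPM in the NCAM-enriched libraries (0, 2 and 17 counts) and at 72.3, 56.9 and 77.3 CPM in bulk skin. The groups were far apart, with 19 counts in all NCAM-enriched libraries together against at least 233 in each bulk library. The means were 2.12 ± 2.46 and 68.8 ± 10.7 CPM (SD, n = 3 each), and the log2 fold change was -4.88 ± 1.05 with an edgeR adjusted p of 0.0496. The fold change ran from -6.66 to -4.32 with any 1 library left out, and the call was lost without any 1 bulk library (adjusted p 0.206 to 0.270). The T and NK and the myeloid markers lay in the same direction as Sema6d, as did all 4 red blood cell markers (1.42 to 22.8 against 736 to 1170 CPM, with Hba-a2 and Hbb-bt at 0 in the NCAM-enriched group). So did the endothelial marker sum (10.8 to 35.1 against 64.7 to 92.3 CPM), although edgeR called none of its markers. DESeq2 and limma-voom each called 3 of the 6 endothelial markers lower (Kdr, Tek and Emcn), where they called 6.36% and 6.45% of all genes lower. The fibroblast markers Dcn and Lum were lower without overlap, while the other fibroblast markers overlapped. The part of all these cells in the Sema6d difference was not tested.

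Sema6a, of the same class, measured 21.8, 12.4 and 9.08 CPM against 32.0, 37.8 and 47.4 CPM, also without overlap (log2 fold change -1.44 ± 0.69, adjusted p = 0.303). Sema6b and Sema6c were each found in 1 of 3 NCAM-enriched libraries and were not tested.

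The class 3 semaphorins, secreted cues that act through neuropilins and class A plexins, split in both directions. Sema3c measured 41.4, 50.2 and 104 CPM against 183, 188 and 220 CPM, with all of bulk skin above (log2 fold change -1.59 ± 0.44, edgeR adjusted p = 0.0845). Sema3d measured 104, 133 and 53.1 CPM against 23.0, 39.1 and 28.8 CPM (1.67 ± 0.51, adjusted p = 0.112). Sema3f, which acts through neuropilin-2, measured 136, 38.6 and 113 CPM against 15.8, 26.6 and 31.5 CPM (1.96 ± 0.59, adjusted p = 0.108). All 3 had groups that did not overlap and none was called by edgeR. The class sum was nearly the same in both groups (288 to 354 against 297 to 360 CPM). Sema3b and Sema3e overlapped, Sema3a held 5 NCAM-enriched counts against 62, and Sema3g had 10 counts in each group.

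The class 4 semaphorins are transmembrane cues that bind class B plexins among others. Sema4d, the ligand of plexin-B1 that lymphocytes make in quantity, measured 7.44, 3.86 and 5.96 CPM against 15.5, 39.6 and 37.3 CPM (log2 fold change -2.40 ± 0.85, edgeR adjusted p = 0.161). Sema4f measured 1.06, 0 and 5.39 CPM against 29.8, 34.6 and 6.58 CPM (-3.33 ± 1.37, adjusted p = 0.230). Both had all of bulk skin above, beside T and NK cell marker sums that were at least 2831 CPM in every bulk library, and the part of lymphocytes was not tested. Sema4a, a class member with roles in immune cells, measured 54.7, 42.5 and 159 CPM against 83.4 to 94.7 CPM, with the third NCAM-enriched library above bulk skin and the others below. Sema4b, Sema4c and Sema4g had fold changes above 0 with overlapping groups. Of Sema5a, a class 5 semaphorin with thrombospondin repeats, the groups overlapped at 64.3, 116 and 56.8 CPM against 95.01, 76.1 and 79.0 CPM. Sema5b had 14 counts against 19, and Sema7a, the lipid-anchored class 7 member, had no NCAM-enriched count, which allows up to 3 counts over the group, and 5 counts in bulk library 1.

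Among the semaphorin receptors, no plexin or neuropilin was called by edgeR, and 1 plexin was higher and 1 lower at an unadjusted p under 0.05. Plxnb2, which was the plexin with the highest level per length in both groups, measured 345, 48.7 and 482 CPM against 196, 173 and 127 CPM, with library 2 below all of bulk skin and the other NCAM-enriched libraries above. Plxnb1, the receptor of Sema4d, had its highest value in that library instead, at 29.8, 241 and 152 CPM against 33.2 to 57.3 CPM (log2 fold change 1.68 ± 0.68, adjusted p = 0.222). The class B sum of 381, 290 and 634 CPM stayed above the 190 to 229 CPM of bulk skin in every library. Plxnb3 had 12 counts against 21, each in a single library.

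Plxna1, the class A plexin that serves class 3 and class 6 semaphorins, measured 33.5, 51.8 and 195 CPM against 129, 144 and 123 CPM. It was called lower only when NCAM-enriched library 3 was left out (log2 fold change -1.71, adjusted p = 0.0435), and Gm26811, which overlaps 10.7% of its exonic length, had 2 counts in all. Plxna2 measured 58.5, 105 and 87.4 CPM against 36.3, 26.2 and 83.1 CPM, and Plxna3 48.4, 0 and 19.0 CPM against 20.2 to 32.4 CPM, both with overlap. Plxna4 had 1 count against 9. Plxnc1, the receptor of Sema7a found on myeloid cells, measured 3.19, 0 and 0 CPM against 28.6, 16.2 and 13.2 CPM, or 6 counts against 215 (log2 fold change -4.15 ± 1.61, edgeR adjusted p = 0.205). DESeq2 (adjusted p = 0.0261) and limma-voom (adjusted p = 0.0267) called it lower, and the Langerhans and myeloid markers were lower in the same libraries, with no test of their part in it. Plxnd1, a plexin known from endothelium, measured 9.03, 23.2 and 9.93 CPM against 20.2, 14.5 and 24.1 CPM, while the 6 endothelial markers summed to 10.8 to 35.1 CPM against 64.7 to 92.3 CPM, with Cdh5, Tek and Emcn at 0 in the NCAM-enriched group. The neuropilins overlapped, Nrp2 at 19.1, 49.4 and 27.5 CPM against 11.8 to 23.8 CPM, and Nrp1 at 49.9, 17.8 and 0.568 CPM against 6.85 to 40.9 CPM.

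**Figure D3:**
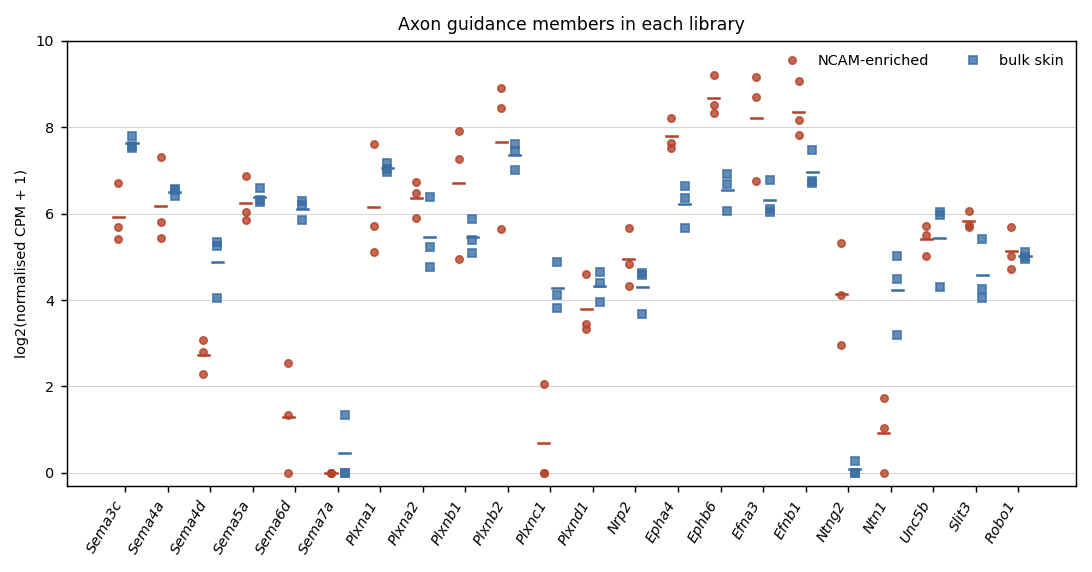
Each named member in each library as log2(CPM + 1), with NCAM-enriched libraries as circles, bulk skin libraries as squares and the group mean of the plotted values as a short line. Ephb6, Ntng2 and Epha4 show NCAM-enriched values above all of bulk skin, Sema6d, Sema3c, Sema4d, Plxnc1 and Ntn1 show them below, and Plxnb2, Efna3 and Sema4a show 1 NCAM-enriched library apart from the others.

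Ntng2 encodes netrin-G2, a lipid-anchored relative of the netrins that binds the adhesion protein Lrrc4 at synapses rather than Dcc. It had 73, 21 and 24 counts in the NCAM-enriched libraries (38.8, 16.2 and 6.81 CPM) and 0, 1 and 0 counts in bulk skin (0.216 CPM in the second library). It was present in all NCAM-enriched libraries and all but absent from bulk skin. The ratio of the pooled counts was 202, with a 95% counting interval of 35.6 to 8062, and the fitted log2 fold change was 7.39 ± 1.57 with an edgeR adjusted p of 0.0481. The call was lost without NCAM-enriched library 1 (adjusted p = 0.0975) or any 1 bulk library (0.231 to 0.285). Ntng2 shares 14.0% of its exonic bases with 6530402F18Rik on the same strand, whose counts were 20, 7 and 55 against 3, 23 and 7. These counts are not scaled for depth, and 1 count was worth 0.773 CPM in NCAM-enriched library 2 and 0.216 CPM in bulk library 2. Once scaled, 6530402F18Rik was higher in every NCAM-enriched library than in any bulk library, the same direction as Ntng2. The part of the shared bases in the Ntng2 counts was not tested. The 6 sensory neuron markers summed to 132 to 178 CPM against 58.1 to 91.0 CPM, of which Avil alone, the only one tested by edgeR and not called, gave 104 to 168 CPM against 57.1 to 91.0 CPM. Of the other markers, Nefm had 0, 32 and 29 counts against none in bulk skin and was called higher by DESeq2 (adjusted p = 0.0137), Scn10a had 5 counts against none, and none of the 6 was at 0 over the NCAM-enriched group. Their part in the Ntng2 counts was not tested.

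Its relative Ntng1, which binds Lrrc4c, had 12 NCAM-enriched counts, all in library 2, against 25, 12 and 26. Ntn1 encodes netrin-1, the secreted cue that attracts axons through Dcc and repels them through Unc5 receptors. It had 2, 3 and 0 counts in the NCAM-enriched libraries (1.06, 2.32 and 0 CPM) against 26, 146 and 78 in bulk skin (8.07, 31.6 and 21.4 CPM), without overlap. The log2 fold change was -4.28 ± 1.47 with an edgeR adjusted p of 0.153, while DESeq2 (adjusted p = 0.00759) and limma-voom (adjusted p = 0.0430) called it lower. Ntn4, a netrin of basement membranes, had 19 counts against 51, 16 of the 19 in library 2.

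Of the netrin receptors only Unc5b reached the filter. Unc5b, known from endothelium, measured 44.6, 51.8 and 31.5 CPM against 18.6, 64.9 and 62.0 CPM, with the NCAM-enriched values inside the bulk range. Dcc, the attractive netrin receptor, had 4 counts against 0, Unc5a 8 against 1 and Unc5d 2 against 11. Unc5c had 65 of its 66 NCAM-enriched counts in library 2, and 6 counts in bulk skin. A count of 0 over a group allows up to 3 counts, so the 4 counts of Dcc against 0 are too few to compare.

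The Slits, secreted repellents, and their Robo receptors did not pass the edgeR threshold. Slit3 measured 51.0, 52.5 and 65.5 CPM against 15.5, 41.5 and 18.1 CPM, without overlap (log2 fold change 1.17 ± 0.59, adjusted p = 0.331). Slit2 overlapped at 5.11 to 26.3 CPM against 8.38 to 19.5 CPM, and Slit1 had 6 counts against 2. Robo1 measured 50.5, 31.7 and 25.3 CPM against 30.7, 30.0 and 33.4 CPM, and Robo2 12.8, 34.0 and 23.0 CPM against 18.6 to 43.0 CPM. Both Robo genes overlapped between the groups, with log2 fold changes of 0.19 ± 0.58 and -0.23 ± 0.74. Robo3 had 4 counts against 0 and Robo4, the endothelial member, 11 against 8.

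Of the names that are neither ligand nor receptor, Unc50, a membrane protein of the Golgi, measured 88.2, 15.5 and 109 CPM against 102, 81.5 and 117 CPM, and Unc5cl, a death-domain protein, had 4 counts against 3.

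Levels were compared between genes only per length, as mean CPM per kilobase of annotated exon. Efna3 was the highest in the NCAM-enriched group at 150, followed by Ephb6 at 113, Efnb1 at 101 and Efna1 at 78.5. In bulk skin Unc50 came first at 63.5, then Efna1 at 61.8, Efnb1 at 37.2 and Efna3 at 33.1, while Ephb6 was at 25.4 in rank 7. Ephrins and an Eph receptor thus held the first 4 ranks in the NCAM-enriched group. Epha4 stood at 28.0 in rank 8 there and at 9.51 in rank 13 in bulk skin, and Sema3c at 9.11 in rank 21 and at 27.6 in rank 5. The SDs of the NCAM-enriched means (236 CPM on 365 for Efna3, 164 on 348 for Efnb1) are wide, and the order of its first ranks is not resolved.

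**Figure D4:**
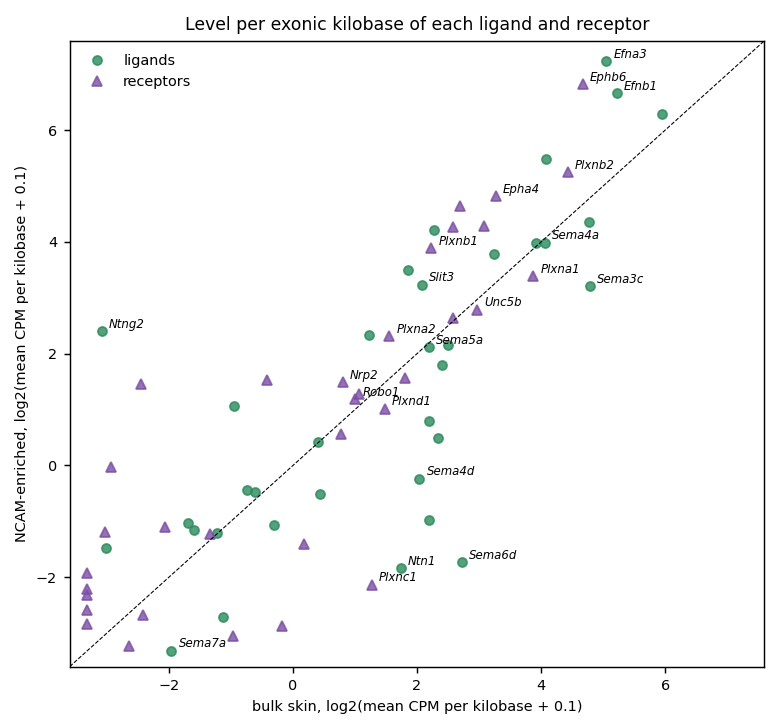
Mean level of each ligand (circles) and receptor (triangles) in bulk skin (horizontal) and in the NCAM-enriched group (vertical), as log2(CPM per kilobase + 0.1), with the dashed line at equal levels and names for the members picked by the naming rule. Efna3 and Ephb6 lie highest and above the line, Ntng2 lies far above it at a low level, and Sema6d, Ntn1 and Plxnc1 lie far below it.

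By role, the ligands summed to 1785, 1353 and 2489 CPM in the NCAM-enriched libraries against 1288, 1524 and 1474 CPM, overlapping groups. The receptors summed to 1615, 1724 and 2385 CPM against 819, 1009 and 999 CPM, without overlap, and the Eph receptors made up most of that gap. Of 28 tested ligands 13 had a fold change above 0, and of 21 tested receptors 14 did. The difference between the roles was not tested.

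Beyond the ligands and receptors, 59 further genes of the pathway were followed, all found in the table and 49 of them tested. Only Pak3 was called, a kinase that carries Rac and Cdc42 signals to actin, at 147, 206 and 141 CPM against 23.0, 42.6 and 42.8 CPM (log2 fold change 2.18 ± 0.43, edgeR adjusted p = 0.0368). EdgeR called 1.04% of all tested genes higher and 1.55% lower, and 1 call of 49 is too few to set this list apart from these. At an unadjusted p under 0.05, 10 were higher and 3 lower, where 8.73% and 10.2% of all genes were. The median log2 fold change of the 49 was 0.20.

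By group, none of the 8 tested cues, further receptors and adhesion partners was called, nor any of the 7 tested collapsin response mediators and Mical proteins or of the 17 tested GTPases and their regulators, while 1 of the 17 kinases, adaptors and actin regulators was. Chl1, an L1-family adhesion molecule that acts with neuropilins, measured 154, 239 and 299 CPM against 97.5, 80.6 and 88.8 CPM (log2 fold change 1.37 ± 0.38, edgeR adjusted p = 0.0841). Ablim1, an actin-binding protein named for its part in axon guidance, measured 426, 457 and 604 CPM against 215, 245 and 193 CPM (1.19 ± 0.34, adjusted p = 0.0930). Pak3, Chl1 and Ablim1 were each above all of bulk skin in every NCAM-enriched library. Chl1 and Ablim1 were called by DESeq2 and by limma-voom but not by edgeR.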

How the data were processed

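Raw read counts per gene for 54532 genes were deposited for 6 libraries, 3 per group as the labels give them. The authors trimmed adapters and discarded abundant sequences before STAR alignment (GRCm38) and gene counting by featureCounts, and deposited the counts without normalization. Their annotation release and strand setting were not given in the sources used here. Smart-seq2 does not mark strand, so overlapping genes cannot be told apart. Replicates were sorted into wells of a plate and are not said to be separate animals, so p-values measure only the spread between these libraries. Reads carry no molecular identifiers, so the exact 95% intervals and the floor of 3 counts over a group reflect counting error alone.

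Counts were tested by the quasi-likelihood F-test of edgeR 4.0.16 (R 4.3.3), after filterByExpr on the groups and TMM scaling, with Benjamini-Hochberg adjustment over 13157 genes. The alternatives were DESeq2 1.42.0, limma-voom (limma 3.58.1), RLE factors, robust dispersion, all genes with a count, a block for the replicate number, and each library left out. SE is the absolute log2 fold change over the square root of F. Lengths and overlaps came from GENCODE M21, which held 54495 of the gene IDs. The edgeR fit was tested on simulated counts. Members, lists and tests were chosen with earlier results of these data known. Values per library are given for called members and, in each family, for the member highest per length and the tested member with the smallest p; other genes with values were chosen after their values were seen. DESeq2 gives an adjusted p only to genes past its own filter. The same-numbered libraries did not deviate together (correlations 0.0226, 0.00025 and -0.00436), so the numbers were not treated as pairs.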

Additional observations from a re-analysis of the deposited data

How the results depend on the processing

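Against 2 members called higher and 1 lower, DESeq2 called 7 and 7, limma-voom 5 and 3, edgeR without the filter on low counts 4 and 2, and edgeR with robust dispersion 1 and 0, while RLE factors left them at 2 and 1. A block for the replicate number left no member called either way by edgeR, where 13 members had an unadjusted p under 0.05, and the samples share only a number. With 1 library left out, members called higher ran from 0 to 5 and members called lower from 0 to 3. No member was called by edgeR without bulk skin library 1, 2 or 3, where 11, 12 and 12 had an unadjusted p under 0.05, and none was called higher without NCAM-enriched library 1, where 18 members had such a p. Over all genes, edgeR called 137 higher and 204 lower, DESeq2 1240 and 1079, limma-voom 351 and 849, edgeR without the filter 769 and 741, and edgeR with the block 50 and 92. Leaving out 1 library gave 0 to 1099 genes higher, 0 without bulk library 1 or 2, and 13 to 733 lower.

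Among values of single named members under the alternatives, 215 kept their direction and side of the threshold, 15 passed it, 16 no longer did, and 6 changed sign, all 6 in members that were not called. With 1 library left out, log2 fold changes ran from -0.95 to 0.24 for Sema4a, from -0.48 to 0.037 for Sema5a, from -0.63 to 0.012 for Unc5b and from -0.16 to 0.33 for Robo1. Ephb6 kept its call under 7 of 12 alternatives, Sema6d under 7 and Ntng2 under 6, with adjusted p up to 0.266, 0.270 and 0.285. The cause of these losses was not tested. Depth limits members with a few counts, since 1 count was up to 0.773 CPM.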
